A study of Mus musculus with 9 samples.

Results

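The genes described here code for the synaptic vesicle and the machinery that releases transmitter from the nerve terminal. They are 48 genes chosen by name from the 18138 of the count table, in 7 roles: vesicle coat and membrane proteins, synaptotagmins, the SNARE fusion core, the active zone with its priming factors, RAB3 and calcium sensors, transmitter transporters of the vesicle, and neurexins. All 48 passed the filter on low counts, which left 14756 genes to test. No measured value entered the choice of the genes by its rule, but earlier results of these data were known when they were proposed.

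RNA was sequenced from mouse brain in 3 groups of 3 libraries. The first group is labelled control, the second had surgical occlusion of the middle cerebral artery (MCAO, a model of ischaemic stroke), and the third received hypidone hydrochloride (YL-0919) at 5 mg/kg for 7 days after the same surgery. Hypidone is an antidepressant candidate that acts on the serotonin transporter and a serotonin receptor, and the series title concerns injury after MCAO. Not stated are strain, age, brain region, hemisphere, time after surgery, vehicle or any sham operation, as far as the sources used here go. Libraries are called by group and by the number in their title: controls 4, 5 and 6, MCAO 4, 5 and 6, and hypidone 2, 7 and 8. Nothing in the labels states whether libraries of one group come from different animals, and the p-values cover only their spread, possibly a technical one.

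Transmitter is stored in vesicles that are filled by transporters and coated with synapsins, synaptophysin and related membrane proteins. Vesicles are tethered and primed at the active zone by scaffold proteins such as RIM, Munc13, Bassoon and liprin-alpha. Synaptotagmins sense calcium, and the SNARE proteins SNAP25, synaptobrevin (VAMP) and syntaxin then pull the vesicle and plasma membranes together. Brain ischaemia is known to disturb transmitter release and to damage nerve terminals.

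Library totals lay between 32075682 and 37325027 counts, and the 48 genes held 2.09 to 2.68% of them in controls, 1.40 to 2.30% in MCAO and 2.46 to 2.54% in hypidone libraries. The labelled tissue matched its markers: all 14 pan-neuronal marker genes, none of them a release gene, were detected, with summed levels of 6685 to 7516 CPM (counts put on one depth with TMM factors) in controls, 3993 to 6748 in MCAO and 6819 to 7186 in hypidone libraries. Of these 14 markers, 3 fell and 0 rose with MCAO, with a median log2 fold change of -0.48, and 4 were higher with hypidone than with MCAO. The 8 microglial markers summed to 520 to 564 CPM in controls, 675 to 2818 in MCAO and 573 to 687 in hypidone libraries, and 4 of 8 rose with MCAO. The 7 macrophage and monocyte markers summed to 26.9 to 31.8, 58.6 to 1950 and 49.5 to 128 CPM, and 3 of 7 rose. No gene of these lists had a count of 0 throughout a group. MCAO 4 lay nearest the controls and MCAO 5 farthest from them in the summed levels of these 3 lists. The 6 endothelial markers summed to 127 to 221 CPM in controls, 212 to 443 in MCAO and 186 to 225 in hypidone libraries, and 3 of 6 rose with MCAO. The 5 red cell markers summed to 41.9 to 72.7 CPM in controls, 4.31 to 28.01 in MCAO and 71.3 to 186 in hypidone libraries, and 5 of 5 were higher with hypidone than with MCAO, with a median log2 fold change of 3.59. Control 5 stood apart from the other controls in hippocampal markers, whose summed level was 871 CPM there and at most 426 in any other library. It was also apart in choroid plexus markers, at 193 CPM against at most 11.4 elsewhere, and in oligodendrocyte markers, at 7279 CPM against at most 4569. Striatal markers were low there, at 134 CPM against at least 255 elsewhere. Interneuron markers summed to 1055 CPM there, and to 1443 and 1403 in controls 4 and 6. Excitatory markers summed to 5813 CPM there, and to 5352 and 5040 in controls 4 and 6. Their mean log2 CPM was 6.50, 7.28 and 7.29 in the same order. In control 5, 18.8% of the 48 members lay over 2-fold from the mean of the other controls, against 8.69% of all genes. The biological coefficient of variation was 29.4% within controls, 41.5% within MCAO and 14.5% within hypidone libraries.

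With MCAO, 10 of the 48 release genes fell and 0 rose (edgeR's quasi-likelihood test, Benjamini-Hochberg adjusted p under 0.05). That is 20.8% lower, where 20.4% of all genes tested were called, 9.81% lower and 10.6% higher. The 10 were the active zone and priming genes Rims1, Unc13a, Unc13b and Ppfia2, the genes Rab3c and Rph3a of the RAB3 and calcium sensor role, the vesicle membrane genes Syngr3 and Sv2c, the synaptotagmin Syt17 and the glutamate transporter gene Slc17a6. The SNARE core role (Snap25, Vamp1, Vamp2, Stx1a, Cplx1, Cplx2 and Napb) counts the complexin genes and Napb beside the SNARE genes. It had 0 of 7 called by edgeR's quasi-likelihood test, 1 of 7 at an unadjusted p under 0.05, 1 of 7 by DESeq2 and 5 of 7 by limma voom. Of all genes tested, DESeq2 called 30.4% and limma voom 50.3% with MCAO. Of the 48, 39 had a log2 fold change below 0, against 49.2% of all genes, and the median was -0.37 against 0.01 for all genes. At an unadjusted p under 0.05, 15 members were lower and 0 higher, and neither DESeq2 nor limma voom called any member higher. In 13 members every MCAO library lay below every control, against 17% of all genes. The edgeR fit estimates 1 spread from all 3 groups, the hypidone libraries included. Fitted on control and MCAO libraries alone, 4 of the 48 were called lower and 4.71% of all genes were called. In bulk tissue, fewer neurons and less of an mRNA per neuron cannot be told apart, and the part that the fall in neuronal markers or the rise in microglial and macrophage markers plays was not tested.

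In the hypidone libraries 10 of 48 members were higher than in MCAO and 0 lower by the same edgeR test, which is 20.8%, where 16.5% of all genes were called, 8.23% higher and 8.28% lower. They were Rims1, Unc13a, Unc13b, Ppfia2, Ppfia3, Rab3c, Rph3a, Syngr3, Sv2c and Slc17a6. Of the 48, 42 lay above 0 and 6 below, against 52.8% of all genes below, with a median log2 fold change of 0.38 against -0.04 for all genes. At an unadjusted p under 0.05, 15 members were higher and 0 lower, and DESeq2 called 0 lower and limma voom 2. Of all genes tested, DESeq2 called 27.3% and limma voom 51.7% for hypidone against MCAO. In 17 members every hypidone library lay above every MCAO library, against 20.9% of all genes. The part that the higher neuronal and red cell markers of the hypidone libraries play was not tested. Both comparisons use the same 3 MCAO libraries, so high or low values there enter both with opposite sign. Syt17 was called in the first comparison only and Ppfia3 in the second only, with Syt17 at 0.70 ± 0.30 (log2, SE) for hypidone against MCAO and Ppfia3 at -0.72 ± 0.24 for MCAO against control. Those 2 differences between comparisons were not tested.

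**Figure D1:**
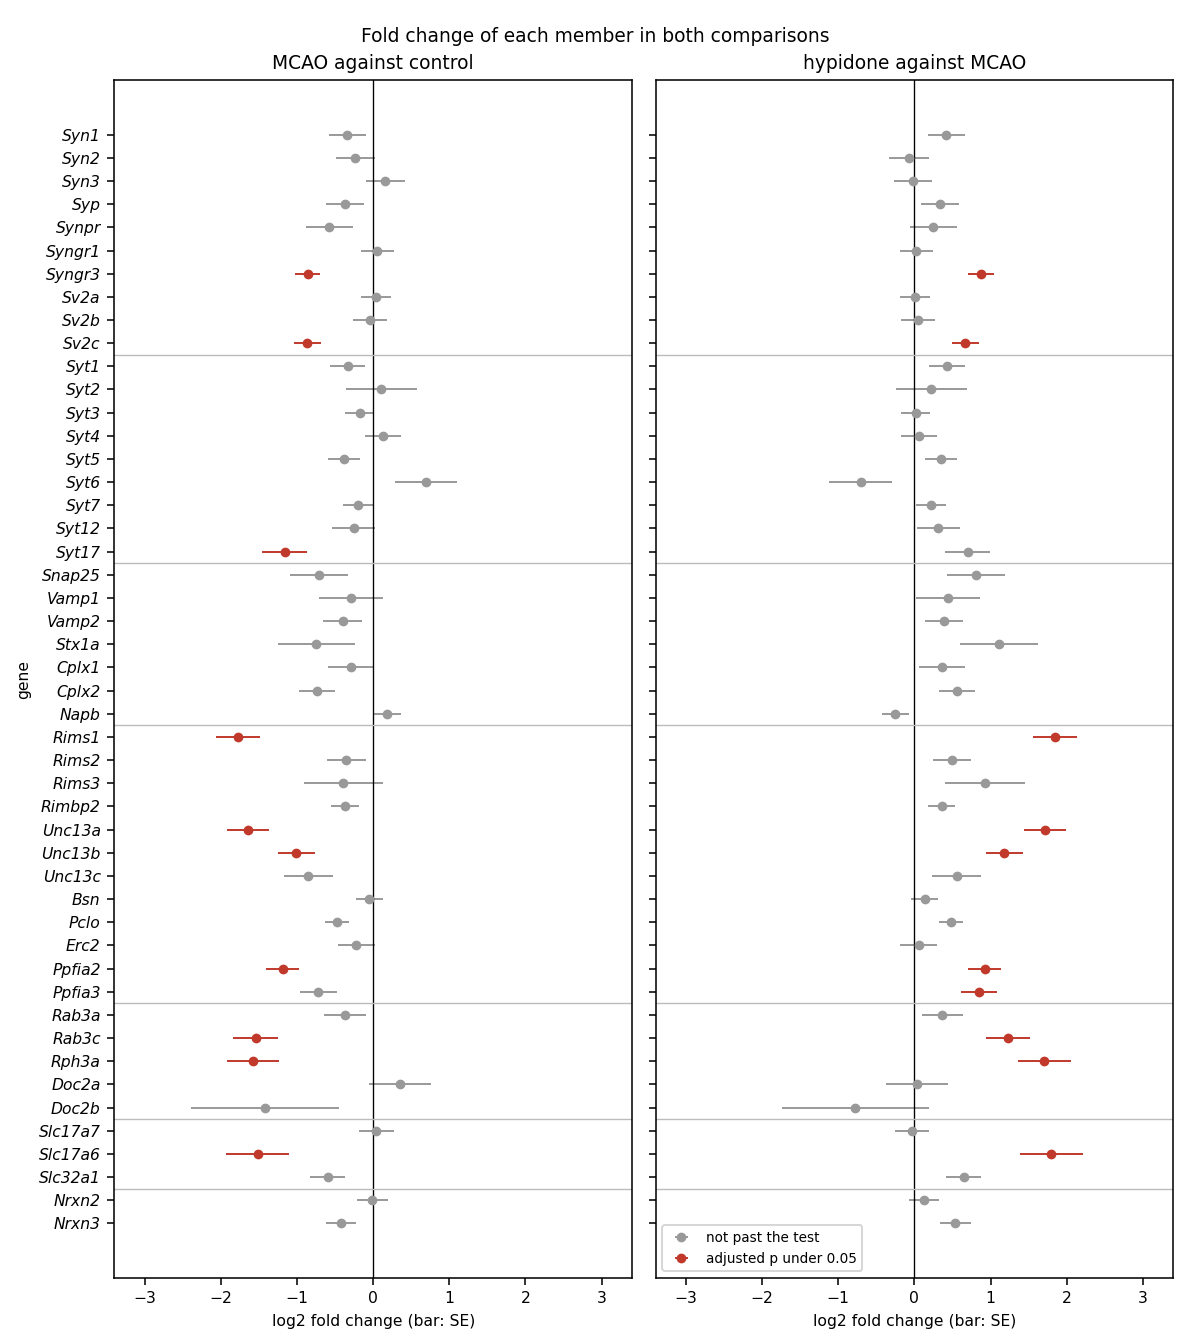
Log2 fold change of each of the 48 members (points, bars are standard errors from the edgeR fit) for MCAO against control and for hypidone against MCAO, with genes past an adjusted p of 0.05 in red. The 10 genes called on the left all lie below 0 and the 10 called on the right all lie above it, with Rims1 at -1.77 and 1.85.

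Rims1 and Unc13a fell furthest in p and in size among the active zone genes, and both lie on the minus strand. RIM1, the Rims1 product, is a scaffold that binds RAB3 on vesicles and calcium channels in the membrane, and Munc13-1, from Unc13a, opens syntaxin so that vesicles become primed. In GRCm38 with GENCODE M21, Rims1 spans chr1:22286251-22805994 and Unc13a chr8:71624417-71671757. Their promoter stretches are shown because these genes moved most, and that choice was made after their values were seen. Each is the 250 bases before the RefSeq start (GRCm38.p6), 5′ to 3′ on the gene's own strand, chr1:22806159-22806408 for Rims1 and chr8:71671758-71672007 for Unc13a. Capitals mark 3 motifs, each searched on both strands. CAGCACC is the left arm of the RE1 site bound by the neuronal repressor REST, and its right arm is GGACAG. The third, TGACG, is the core of the cyclic AMP response element. None of the 3 is in the Rims1 stretch.
Rims1: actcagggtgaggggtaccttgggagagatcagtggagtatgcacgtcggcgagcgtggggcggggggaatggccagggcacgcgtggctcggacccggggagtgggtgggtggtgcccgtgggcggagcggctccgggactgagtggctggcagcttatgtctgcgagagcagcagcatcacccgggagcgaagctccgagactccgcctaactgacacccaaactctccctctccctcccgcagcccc
Unc13a: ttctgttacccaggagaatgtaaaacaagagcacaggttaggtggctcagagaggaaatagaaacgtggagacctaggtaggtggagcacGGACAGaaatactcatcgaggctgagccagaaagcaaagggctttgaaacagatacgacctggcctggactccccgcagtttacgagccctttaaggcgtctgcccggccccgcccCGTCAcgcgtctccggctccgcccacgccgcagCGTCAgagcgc

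Rims1 stood at 384, 214 and 378 CPM in controls 4, 5 and 6, 135, 70.2 and 80.9 CPM in MCAO 4, 5 and 6, and 337, 344 and 350.4 CPM in hypidone 2, 7 and 8. All 3 MCAO libraries lay below all 6 others, and the hypidone libraries lay inside the control range. The log2 fold change was -1.77 ± 0.29 for MCAO against control (adjusted p = 0.00648) and 1.85 ± 0.29 for hypidone against MCAO (adjusted p = 0.00673; edgeR quasi-likelihood test).
Unc13a stood at 308, 274 and 385 CPM in controls 4, 5 and 6, 154, 75.6 and 78.4 CPM in MCAO 4, 5 and 6, and 370.4, 323 and 323 CPM in hypidone 2, 7 and 8. Again the MCAO group did not overlap either other group, and MCAO 4 was the highest of its group for both genes. By the edgeR quasi-likelihood test Unc13a changed by -1.65 ± 0.28 on the log2 scale with MCAO (adjusted p = 0.00702) and by 1.72 ± 0.28 from MCAO to hypidone (adjusted p = 0.00737).

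The other active zone genes called code for Munc13-2 (Unc13b), a priming factor like Munc13-1, and for liprin-alpha-2 and liprin-alpha-3 (Ppfia2 and Ppfia3), scaffolds that help to assemble the active zone. Unc13b, at chr4:43058953-43264871, was measured at 41.2, 31.01 and 46.4 CPM in controls 4, 5 and 6, 14.98, 27.7 and 16.2 CPM in MCAO 4, 5 and 6, and 46.3, 43.4 and 43.8 CPM in hypidone 2, 7 and 8. MCAO 5 came within 4 CPM of control 5, the lowest control, and the groups did not overlap. Unc13b gave a log2 fold change of -1.01 ± 0.24 with MCAO and of 1.18 ± 0.24 for hypidone against MCAO, with edgeR adjusted p-values of 0.0220 and 0.0157.
Ppfia2, at chr10:106470339-106935952, was measured at 118, 194 and 111 CPM in controls 4, 5 and 6, 74.4, 57.4 and 54.5 CPM in MCAO 4, 5 and 6, and 116, 114 and 124 CPM in hypidone 2, 7 and 8. Control 5 was the highest of all 9 libraries, and MCAO overlapped neither group. The log2 fold change was -1.19 ± 0.22 for MCAO against control (adjusted p = 0.00928) and 0.92 ± 0.22 for hypidone against MCAO (adjusted p = 0.0232; edgeR quasi-likelihood test). Of its exonic bases 24.5% are shared with Acss3 or C230021G24Rik, and reads there could have been counted to either gene.
Ppfia3, at chr7:45339122-45367019, had 228, 180.5 and 239 CPM in controls 4, 5 and 6, 181, 85.97 and 127 CPM in MCAO 4, 5 and 6, and 226, 243 and 238 CPM in hypidone 2, 7 and 8. MCAO 4 and control 5 were level, so MCAO and control overlapped, while every hypidone library lay above every MCAO library. Ppfia3 gave a log2 fold change of -0.72 ± 0.24 with MCAO and of 0.85 ± 0.24 for hypidone against MCAO, with edgeR adjusted p-values of 0.0607 and 0.0428.

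All 12 active zone genes had log2 fold changes below 0 with MCAO (median -0.60), of which 4 passed the test, and all 12 lay above 0 for hypidone against MCAO (median 0.70), of which 5 passed. Of all genes 49.2% lay below 0 with MCAO and 9.81% were called lower. For hypidone against MCAO 52.8% of all genes lay below 0 and 8.23% were called higher. Non-overlap was seen in 6 of 12 with MCAO and in 8 of 12 with hypidone, against 17% and 20.9% of all genes. Bassoon and Piccolo, the very large scaffold proteins that define the active zone, had log2 fold changes nearer 0 than Rims1 and Unc13a in both comparisons, a difference between genes that was not tested. The Bassoon gene Bsn stood at 334, 372 and 435 CPM in controls 4, 5 and 6, 436, 328 and 335 CPM in MCAO 4, 5 and 6, and 463, 408 and 336 CPM in hypidone 2, 7 and 8. The 3 groups overlapped throughout, and MCAO 4 was the second highest of the 9. Bsn gave -0.05 ± 0.18 with MCAO and 0.14 ± 0.18 for hypidone against MCAO on the log2 scale, with edgeR adjusted p-values of 0.853 and 0.619, and was not called.
The Piccolo gene Pclo had log2 fold changes of -0.47 ± 0.16 (edgeR quasi-likelihood adjusted p = 0.0623) and 0.48 ± 0.16 (adjusted p = 0.0667). The paralogue Rims3 was at 59.9 CPM in control 5 and at 336 and 347 CPM in controls 4 and 6. It was not called with all libraries and was called lower with MCAO once control 5 was left out. The remaining active zone genes, Rims2, Rimbp2, Unc13c and Erc2, had log2 fold changes with MCAO from -0.85 (Unc13c) to -0.22 (Erc2), none past the test.

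**Figure D2:**
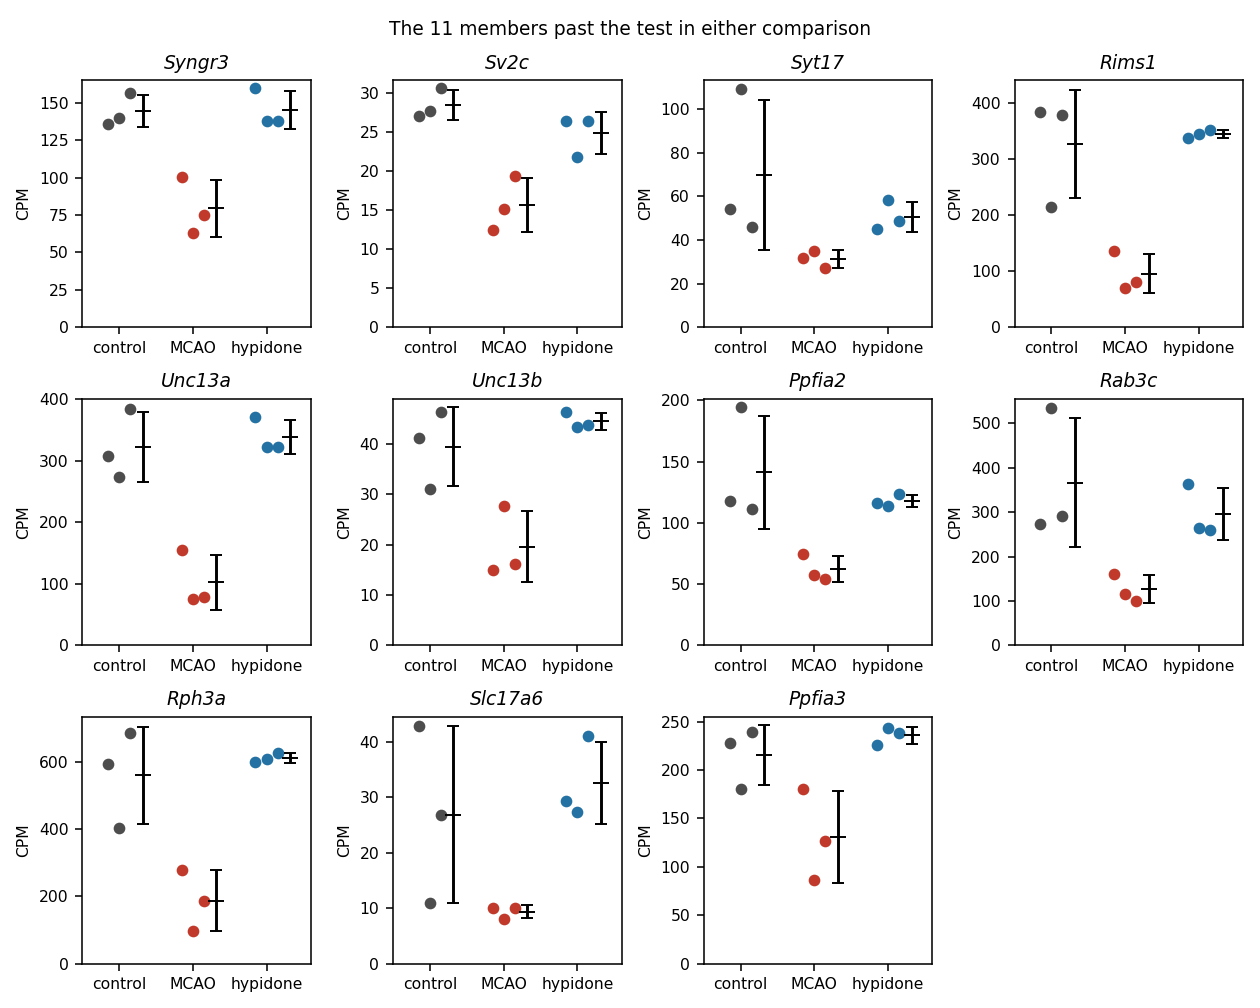
CPM of the 11 members past the test in either comparison, by group, each point a library and each bar the mean ± SD of 3 libraries, on linear axes from 0. The MCAO points lie below both other groups for every gene apart from Ppfia3, where MCAO 4 and control 5 are level at 181 and 180.5 CPM.

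In the role of RAB3 and calcium sensors 2 of 5 genes fell with MCAO, against 9.81% of all genes. The same 2 were higher with hypidone than with MCAO, against 8.23% of all genes. The median log2 fold change of the 5 with MCAO, -1.42, is the value of Doc2b, which rested on control 5 as its values show. RAB3 proteins are small GTPases of the vesicle membrane, and rabphilin, from Rph3a, binds RAB3 and calcium. Rab3c, at chr13:110054187-110280996, had 274, 534 and 291 CPM in controls 4, 5 and 6, 161, 116 and 100.5 CPM in MCAO 4, 5 and 6, and 364, 265 and 259 CPM in hypidone 2, 7 and 8. Control 5 was the highest library by a wide margin, and MCAO lay below all others. The log2 fold change was -1.54 ± 0.29 for MCAO against control (adjusted p = 0.0101) and 1.23 ± 0.29 for hypidone against MCAO (adjusted p = 0.0235; edgeR quasi-likelihood test).
Rph3a, at chr5:120940499-121010092, had 592, 403 and 684 CPM in controls 4, 5 and 6, 279.6, 97.1 and 185 CPM in MCAO 4, 5 and 6, and 599, 607 and 627 CPM in hypidone 2, 7 and 8. Every MCAO library lay below every other library, MCAO 5 lowest, and the hypidone libraries lay inside the control range. By the edgeR quasi-likelihood test Rph3a changed by -1.58 ± 0.35 on the log2 scale with MCAO (adjusted p = 0.0162) and by 1.71 ± 0.35 from MCAO to hypidone (adjusted p = 0.0151).
Rab3a, by FPKM the most abundant gene of this role (487 ± 55.5 FPKM in controls, SD, n = 3), had log2 fold changes of -0.37 ± 0.27 and 0.37 ± 0.27, with adjusted p-values of 0.355 and 0.367 from the edgeR test. Doc2b, the gene of a calcium sensor for spontaneous release, was at 143 CPM in control 5 and at 6.84 and 9.32 CPM in controls 4 and 6. Its log2 fold change of -1.42 ± 0.97 for MCAO against control rested on that library, and without control 5 Doc2b was called higher with MCAO. Doc2a gave 0.35 ± 0.41 and was not called, and 39.4% of its exonic bases are shared with Ino80e.

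Among the vesicle coat and membrane genes, 2 of 10 fell with MCAO and both were higher with hypidone than with MCAO. Of all genes 9.81% were called lower with MCAO and 8.23% higher with hypidone against MCAO. Syngr3 codes for synaptogyrin-3, a vesicle membrane protein that binds the dopamine transporter, and lies at chr17:24685092-24689955. Syngr3 had 136, 140.2 and 156 CPM in controls 4, 5 and 6, 100.3, 62.9 and 75.2 CPM in MCAO 4, 5 and 6, and 160.2, 138 and 138 CPM in hypidone 2, 7 and 8. MCAO overlapped neither group, and controls and hypidone libraries overlapped. Syngr3 gave a log2 fold change of -0.86 ± 0.17 with MCAO and of 0.87 ± 0.17 for hypidone against MCAO, with edgeR adjusted p-values of 0.0113 and 0.0131.
Sv2c, one of 3 genes for the SV2 vesicle glycoproteins and most abundant in basal ganglia and brainstem, lies at chr13:95954594-96132577 and had 27.1, 27.7 and 30.7 CPM in controls 4, 5 and 6, 12.4, 15.1 and 19.4 CPM in MCAO 4, 5 and 6, and 26.4, 21.8 and 26.4 CPM in hypidone 2, 7 and 8. The 3 groups were all separate, with the hypidone libraries between MCAO and control. The log2 fold change was -0.87 ± 0.18 for MCAO against control (adjusted p = 0.0128) and 0.67 ± 0.18 for hypidone against MCAO (adjusted p = 0.0340; edgeR quasi-likelihood test).
The other SV2 genes, Sv2a and Sv2b, had log2 fold changes of 0.04 and -0.04 with MCAO and of 0.01 and 0.04 with hypidone, none past the test.

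Synapsin I and synaptophysin are the standard markers of vesicles. Syn1 was measured at 977, 815 and 1099 CPM in controls 4, 5 and 6, 997, 494 and 794 CPM in MCAO 4, 5 and 6, and 1015, 1056 and 981 CPM in hypidone 2, 7 and 8. MCAO 4 lay inside the control range, and MCAO 5 and MCAO 6 below it. Neither comparison passed the edgeR test, at -0.34 ± 0.24 with MCAO (log2, adjusted p = 0.339) and 0.42 ± 0.24 for hypidone against MCAO (adjusted p = 0.251).
Syp was measured at 1906, 1652 and 2115 CPM in controls 4, 5 and 6, 1904, 944 and 1545 CPM in MCAO 4, 5 and 6, and 1886, 1822 and 1839.8 CPM in hypidone 2, 7 and 8. The pattern was that of Syn1, with MCAO 4 level with control 4. Syp gave -0.37 ± 0.25 with MCAO and 0.34 ± 0.25 for hypidone against MCAO on the log2 scale, with edgeR adjusted p-values of 0.307 and 0.361, and was not called.
Syn2, Syn3, Synpr and Syngr1 were not called either, with log2 fold changes with MCAO from -0.58 (Synpr) to 0.16 (Syn3). Genes for metalloproteinase inhibitors lie inside synapsin genes: 14.1% of the exonic bases of Syn3 are shared with Timp3, and 1.28% of those of Syn2 with Timp4. Timp3 was at 110 to 136 CPM in controls and at 176 to 275 CPM in MCAO libraries, against 34.7 to 37.6 and 26.4 to 58.1 CPM for Syn3. The strand setting of the counting was not given in these sources, and the part of shared reads in the Syn3 values was not tested.

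Synaptotagmins had 1 of 9 genes called with MCAO, lower, which is 11.1% against 9.81% of all genes called lower. Synaptotagmin-17, from Syt17, at chr7:118380717-118448222, lacks the transmembrane segment that most of the family carry. Syt17 had 54.2, 109 and 45.9 CPM in controls 4, 5 and 6, 31.6, 35.2 and 26.97 CPM in MCAO 4, 5 and 6, and 45.03, 58.4 and 48.7 CPM in hypidone 2, 7 and 8. Control 5 was the highest library, and MCAO lay below both groups. Syt17 gave a log2 fold change of -1.16 ± 0.30 with MCAO and of 0.70 ± 0.30 for hypidone against MCAO, with edgeR adjusted p-values of 0.0274 and 0.129. Without control 5 its log2 fold change with MCAO was -0.68, still past the test.
Synaptotagmin-1, from Syt1, is the main calcium sensor for fast release in the forebrain. Syt1 was measured at 2258, 1717 and 2498 CPM in controls 4, 5 and 6, 2216, 1395 and 1532 CPM in MCAO 4, 5 and 6, and 2592, 2191 and 2142 CPM in hypidone 2, 7 and 8. MCAO 4 lay inside the control range and MCAO 5 and MCAO 6 below all controls. Syt1 gave -0.33 ± 0.23 with MCAO and 0.43 ± 0.23 for hypidone against MCAO on the log2 scale, with edgeR adjusted p-values of 0.327 and 0.218, and was not called.
Between MCAO and control the other 7 synaptotagmin genes ranged from -0.38 (Syt5) to 0.69 (Syt6) on the log2 scale, and none passed the test. For hypidone against MCAO 0 of 9 were called by edgeR's quasi-likelihood test, 1 of 9 had an unadjusted p under 0.05, DESeq2 called 0 and limma voom 3 higher and 1 lower. Limma voom called 51.7% of all genes there.

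**Figure D3:**
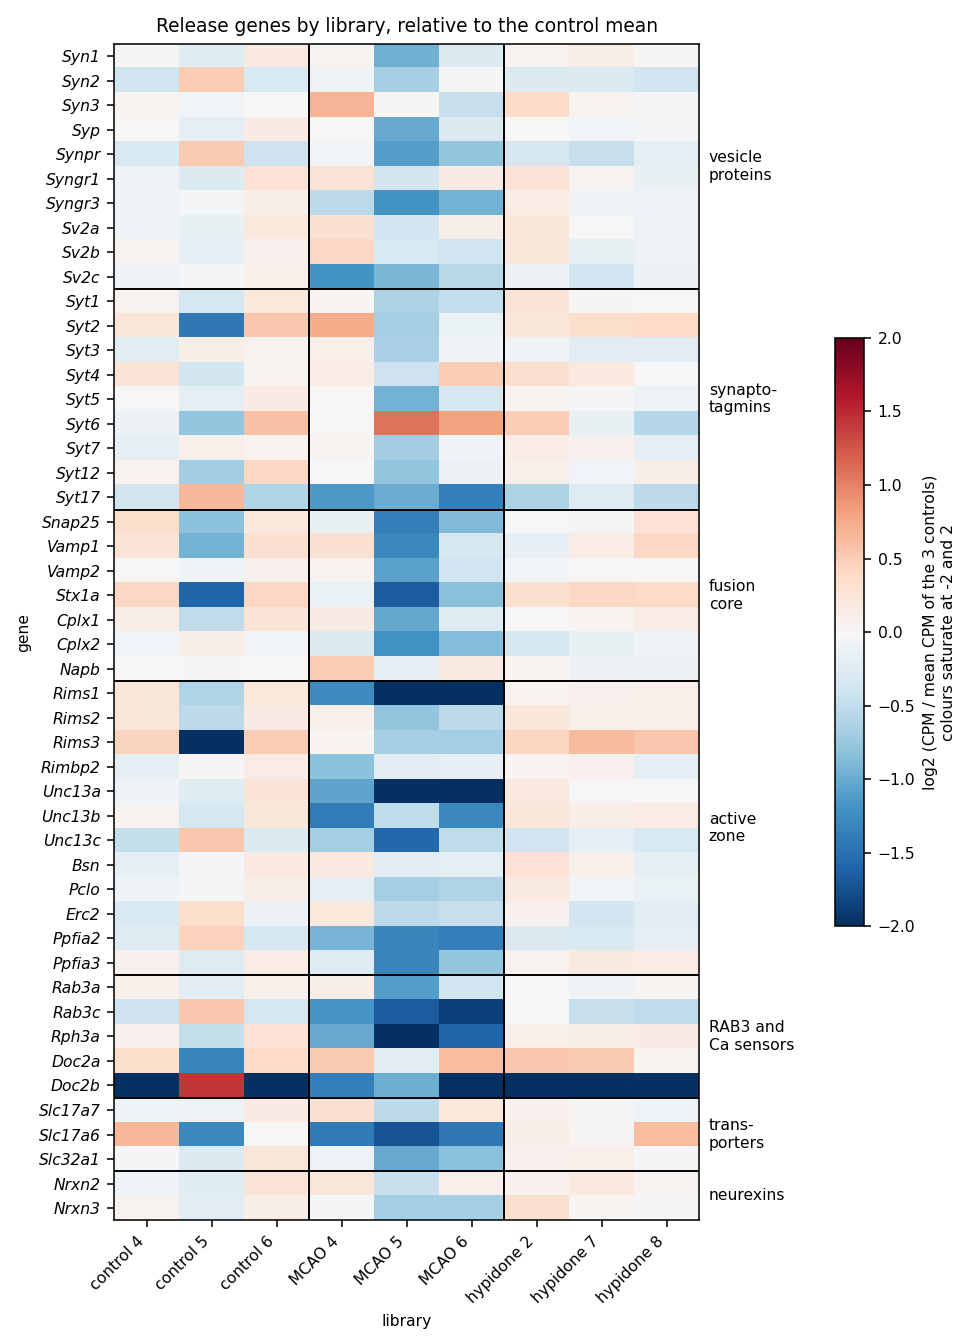
Log2 ratio of each library's CPM to the mean of the 3 controls for all 48 members, grouped by role, with colours saturating at -2 and 2. MCAO 5 is below the control mean for 35 of the 37 uncalled members and all 10 called lower, MCAO 4 for 13 and 10, and control 5 stands apart from the other controls in genes such as Doc2b and Rims3.

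The SNARE gene Snap25 was the most abundant member. By FPKM, which divides by gene length and so allows levels of genes to be compared, Snap25 led at 1785 ± 659 FPKM in controls (SD, n = 3), followed by Syp at 752 ± 82.8 and Vamp2 at 713 ± 34.3. Rims1 and Unc13a were far lower, at 28.1 ± 7.95 and 38.1 ± 6.36 FPKM, and Syn3 lowest at 0.50. Yet Syn3 exceeded Sv2c in CPM in every control, with 12282 exonic bases against 9700, and Sv2c had 2.78 FPKM. The lowest rank of Syn3 thus depends on the gene length behind its FPKM, which was not checked. Snap25 was measured at 5637, 2494 and 5100.4 CPM in controls 4, 5 and 6, 3992, 1706 and 2384 CPM in MCAO 4, 5 and 6, and 4377, 4341 and 5407 CPM in hypidone 2, 7 and 8. Control 5 was less than MCAO 4, and every hypidone library lay above every MCAO library. Neither comparison passed the edgeR test, at -0.71 ± 0.38 with MCAO (log2, adjusted p = 0.204) and 0.81 ± 0.38 for hypidone against MCAO (adjusted p = 0.164).
Vamp2 was measured at 1568, 1465 and 1654 CPM in controls 4, 5 and 6, 1619, 747 and 1179.8 CPM in MCAO 4, 5 and 6, and 1510.4, 1555 and 1561 CPM in hypidone 2, 7 and 8. MCAO 4 was inside the control range and MCAO 5 lowest of all. Vamp2 gave -0.40 ± 0.25 with MCAO and 0.38 ± 0.25 for hypidone against MCAO on the log2 scale, with edgeR adjusted p-values of 0.274 and 0.306, and was not called.
Stx1a, the gene of syntaxin-1A, was measured at 471, 116 and 470.2 CPM in controls 4, 5 and 6, 322, 111 and 197 CPM in MCAO 4, 5 and 6, and 440.3, 467 and 458 CPM in hypidone 2, 7 and 8. Control 5 was as low as MCAO 5. Neither comparison passed the edgeR test, at -0.75 ± 0.51 with MCAO (log2, adjusted p = 0.315) and 1.12 ± 0.51 for hypidone against MCAO (adjusted p = 0.154).
For Cplx2, which codes for complexin-2, a clamp on the SNARE complex, every MCAO library lay below every control, with a log2 fold change of -0.73 ± 0.24 and an adjusted p of 0.0550 from the edgeR test. Vamp1, Cplx1 and Napb had -0.29, -0.29 and 0.19, none past the test. Between hypidone and MCAO 0 of 7 SNARE core genes were called by edgeR's quasi-likelihood test, 1 had an unadjusted p under 0.05, DESeq2 called 0, and limma voom called 4 higher and 1 lower. Limma voom called 51.7% of all genes there. In the authors' deposited comparisons Snap25 (q = 0.0492) and Stx1a (q = 0.0117) were higher with hypidone than with MCAO, and Cplx2 (q = 0.0485) lower with MCAO. Without MCAO 4, Snap25, Vamp2 and Cplx2 passed the edgeR test in both comparisons. Without control 5, Stx1a passed it for hypidone against MCAO.

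**Figure D4:**
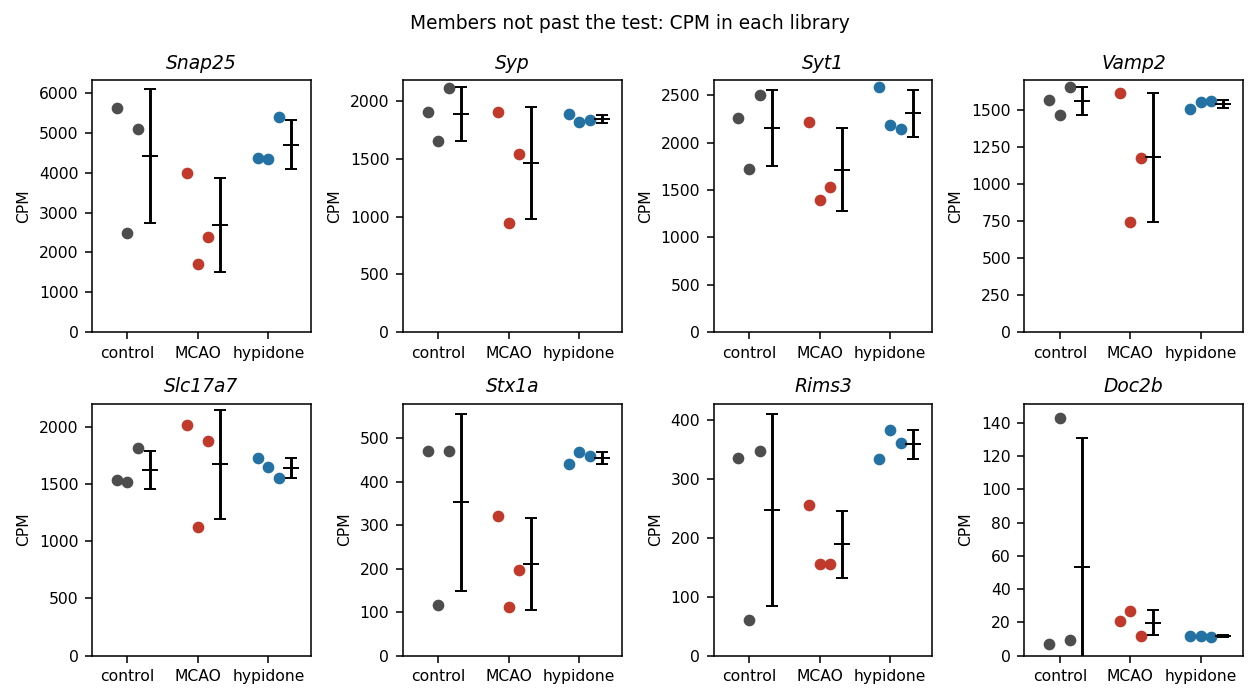
CPM by library for members that passed the test in neither comparison, each point a library and each bar the mean ± SD of 3 libraries, cut at 0 where it would go below (Doc2b in controls). In most panels MCAO 5 is the lowest of its group, as for Vamp2 at 747 CPM, and MCAO 4 lies near the controls.

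Vesicular transporters separate glutamate terminals from GABA terminals. VGLUT1, from Slc17a7, loads glutamate mainly in cortical and hippocampal neurons, VGLUT2, from Slc17a6, mainly in thalamus and brainstem, and Slc32a1 codes for the transporter of GABA and glycine. Slc17a6, at chr7:51622006-51671119, had 42.8, 10.97 and 26.9 CPM in controls 4, 5 and 6, 10.1, 8.13 and 9.97 CPM in MCAO 4, 5 and 6, and 29.4, 27.4 and 41.1 CPM in hypidone 2, 7 and 8. The control libraries spread widely, and control 5 came within 1 CPM of MCAO 4. The 7 thalamic markers summed to 146 to 158 CPM in controls, 176 to 197 in MCAO and 152 to 157 in hypidone libraries. With MCAO 5 of them lay above 0 and 2 below, and 1 was called higher. Their relation to the Slc17a6 values was not tested. Slc17a6 gave a log2 fold change of -1.52 ± 0.41 with MCAO and of 1.80 ± 0.41 for hypidone against MCAO, with edgeR adjusted p-values of 0.0327 and 0.0221.
Slc17a7 had 1537, 1520.2 and 1819 CPM in controls 4, 5 and 6, 2018, 1128 and 1876 CPM in MCAO 4, 5 and 6, and 1727, 1647 and 1550.0 CPM in hypidone 2, 7 and 8. MCAO 4 and MCAO 6 were the highest of the 9 libraries and MCAO 5 the lowest. Neither comparison passed the edgeR test, at 0.04 ± 0.23 with MCAO (log2, adjusted p = 0.912) and -0.03 ± 0.23 for hypidone against MCAO (adjusted p = 0.942).
Slc32a1 had 82.7, 69.3 and 99.3 CPM in controls 4, 5 and 6, 77.9, 41.5 and 47.1 CPM in MCAO 4, 5 and 6, and 89.02, 89.6 and 82.8 CPM in hypidone 2, 7 and 8. MCAO 4 lay inside the control range, the other MCAO libraries below it, and every hypidone library above MCAO. Slc32a1 gave -0.59 ± 0.23 with MCAO and 0.65 ± 0.23 for hypidone against MCAO on the log2 scale, with edgeR adjusted p-values of 0.0950 and 0.0799, and was not called.
Neurexins, presynaptic adhesion proteins, had 0 of 2 genes called by edgeR in either comparison, with 0 of 2 at an unadjusted p under 0.05 with MCAO and 1 of 2 (Nrxn3) for hypidone against MCAO. In each comparison DESeq2 called 0 of 2 and limma voom 1, where limma voom called 50.3% and 51.7% of all genes. Nrxn2 had -0.01 ± 0.20 and 0.13 ± 0.20, and Nrxn3 -0.42 ± 0.20 and 0.54 ± 0.20, on the log2 scale.

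The called and the uncalled members differed most in MCAO 4. Over the 10 members called with MCAO, the median level as a percentage of the control mean was 44.6% in MCAO 4, 36.2% in MCAO 5 and 37.8% in MCAO 6. Over the 37 members called in neither comparison it was 104%, 62.4% and 80.1%. These genes were divided by the call itself, so the percentages describe the libraries and are no test. Of the 37, 24 lay inside the control range in MCAO 4, 5 in MCAO 5 and 16 in MCAO 6, and those below it numbered 4, 31 and 16. In hypidone libraries the medians were 97.8 to 105% for the 10 and 97.2 to 106% for the 37.

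**Figure D5:**
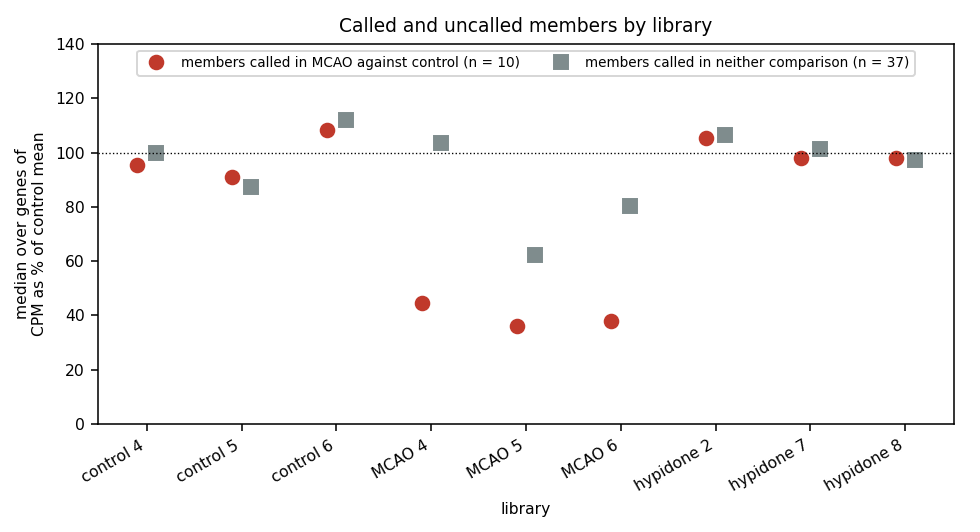
Median over genes of CPM as a percentage of the control mean in each of the 9 libraries, for the 10 members called with MCAO and the 37 called in neither comparison, with a dotted line at 100%. In MCAO 4 the 2 sets stand at 44.6% and 104%, in MCAO 5 at 36.2% and 62.4%.

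Between hypidone and control libraries, 0 of 48 members were called by edgeR's quasi-likelihood test and 0 had an unadjusted p under 0.05. Background was 0% of all genes called in that comparison, and DESeq2 and limma voom called 0 members, each with 1 member at an unadjusted p under 0.05. The median log2 fold change of the 48 was 0.05. The lowest p was that of Doc2b, 0.0546, with a log2 fold change of -2.20, the gene in which control 5 stood apart. Over the 11 genes called in the other comparisons the log2 fold changes ran from -0.46 (Syt17) to 0.28 (Slc17a6), from -0.61 (Syt17) to 0.79 (Slc17a6) without control 4, from -0.22 (Sv2c) to 0.07 (Rab3c) without control 5, and from -0.69 (Syt17) to 0.30 (Unc13b) without control 6. For Sv2c and Cplx2 every hypidone library lay below every control, 2 of 48 members against 2.71% of all genes. A p that misses the threshold does not show that the groups were alike.

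Other presynaptic genes, 86 in 5 lists, of which 82 were tested, were read from the same fit. With MCAO 8 of 82 fell (9.76%, against 9.81% of all genes) and 2 rose, with a median log2 fold change of -0.13. With hypidone against MCAO 8 were higher (9.76%, against 8.23% of all genes) and 2 lower, with a median of 0.15. Among fusion and priming genes 3 of 29 fell, Rab27b, Napg and Vamp4, and the same 3 were higher with hypidone. Rab27b, a small GTPase of secretory vesicles related to RAB3, had log2 fold changes of -1.30 ± 0.15 (edgeR adjusted p = 0.00269) and 1.17 ± 0.15 (adjusted p = 0.00446). Among 7 further synaptotagmins Syt9, a fast calcium sensor, fell by 1.19 ± 0.28 on the log2 scale and was 1.34 ± 0.28 higher with hypidone, and Syt14 was lower with hypidone at -0.64. Of 12 other vesicle proteins tested, Mal2 had log2 fold changes of -0.996 with MCAO and 1.02 for hypidone against MCAO. Syngr2 and Sypl, relatives of synaptogyrin and synaptophysin that are also made outside neurons, rose by 1.19 and 0.47 on the log2 scale with MCAO. Sypl was lower in hypidone than in MCAO libraries, at -0.59, and Syngr2 had -0.999 and did not pass the test. In vesicle endocytosis 2 of 19 fell with MCAO, Eps15 (-0.68) and Pacsin1 (-0.63), and both were higher with hypidone (0.56 and 0.72). The vacuolar proton pump that acidifies vesicles had 0 of 15 genes called in either comparison by edgeR, with 2 of 15 at an unadjusted p under 0.05 in each. DESeq2 called 0 of 15 in each, while limma voom called 6 lower and 1 higher with MCAO and 2 higher and 1 lower with hypidone. Of all genes limma voom called 50.3% with MCAO and 51.7% for hypidone against MCAO.

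Promoter sequences were looked up for the 48 members, and 35 matched, with 50 windows out of 32851 in the table. The left RE1 arm CAGCACC was present in 5 of the 50 member windows, 1 each for Ppfia3, Rph3a, Sv2c, Syn1 and Unc13a, and in 7.14% of all windows. The right arm GGACAG was present in 17 of the 50 member windows and in 22.2% of all windows, and the core TGACG in 8 of the 50 and in 20.8%. Both RE1 arms fell in 2 of the 50, those of Rph3a and Unc13a, and in 1.73% of all windows. Both figures count the arms on either strand, in any order and at any spacing. The sites are shown as 30 bases on the strand that reads CAGCACC, with both arms in capitals, because they are the matches among the genes described above. Their places in GRCm38 are chrX:20921126-20921155 and chrX:20921072-20921101 for Syn1, chr13:96132656-96132685 for Sv2c, chr8:71671722-71671751 for Unc13a, chr7:45367041-45367070 for Ppfia3 and chr5:121009621-121009650 for Rph3a. The Unc13a and Rph3a sites read on the plus strand, opposite to the gene, and the others on the minus strand, as the gene. The left arm of the Unc13a site lies 22 bases past the RefSeq start, so it is not in the Unc13a stretch printed above.
Syn1, distal: tcggattCAGCACCgcggtcagagccttcg
Syn1, proximal: acctcccCAGCACCaaaggctgactgacgt
Sv2c: gccactgCAGCACCgaagggaggaggcgaa
Unc13a: gtcgcttCAGCACCgggggcgcGGACAGcg
Ppfia3: ggccattCAGCACCgtccgtcagtcttctg
Rph3a: ccacGGACAGCACCaggacgcaagcggagg
In Rph3a the arms overlap and run as one word with the right arm first, the reverse of their order in an RE1 site. In Unc13a the left arm comes first and the arms are 8 bases apart. A match of letters is a description and not a binding site.

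Rims1 and Unc13a were past the test for hypidone against MCAO under all 19 alternative settings, and for MCAO against control they and Rab3c were past it under 19 of 20. Leaving out single libraries moved the number of members called lower with MCAO from 10 to 20 without MCAO 4, to 6 without control 6 and to 5 without MCAO 6. For hypidone against MCAO it moved from 10 to 19 without MCAO 4, to 3 without MCAO 6, to 2 without hypidone 2 and to 3 without hypidone 7 or hypidone 8. The share of all genes called moved as well. With MCAO it went from 20.4% to 28.5% without MCAO 4, 7.26% without control 6 and 8.78% without MCAO 6. For hypidone against MCAO the share went from 16.5% to 25.8% without MCAO 4 and 4.88% without MCAO 6. Without hypidone 2, 7 and 8 in turn it was 3.96, 3.89 and 3.65%. Unc13b and Rph3a lost their call with MCAO without control 4, control 6 or MCAO 6, Syngr3 and Syt17 without MCAO 6, and Sv2c without control 6. Slc17a6 lost it when any library other than control 5 or MCAO 4 was left out. For hypidone against MCAO, Unc13b, Ppfia2, Ppfia3, Rab3c, Rph3a and Slc17a6 lost their call without MCAO 6 and without each hypidone library, and Ppfia3 also without control 4 or control 6. Syngr3 lost it without MCAO 6 or hypidone 2, and Sv2c without any of control 4, control 6, MCAO 5 and the hypidone libraries. Syt17 gained a call there without control 5, and Ppfia3 with MCAO without MCAO 4. Scaled on the 14 pan-neuronal markers, which shifts the median of all genes to 0.52, Rims1 (-1.29), Unc13a (-1.19), Rph3a (-1.15) and Rab3c (-1.10) stayed lower with MCAO. On that scale Syngr1, Sv2a, Syt4, Napb, Slc17a7 and Nrxn2 were called higher, and the other 6 calls were lost. For hypidone against MCAO, where the scaling shifts the median of all genes to -0.55, Rims1 (1.40), Unc13a (1.28), Rph3a (1.30), Slc17a6 (1.30) and Ppfia3 (0.41) stayed higher. There Sv2a, Napb and Slc17a7 were called lower. In the authors' deposited table of comparisons 11 members were lower with MCAO and 14 higher with hypidone against MCAO at a q-value under 0.05, among them all 10 called by edgeR in each. The further ones were Cplx2 with MCAO, and Syt17, Snap25, Stx1a and Rims3 for hypidone against MCAO.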

How the data were processed

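Mouse brain RNA from 9 samples was sequenced, in 3 groups of 3 taken from the treatment labels, with library numbers from the titles. Per the labels' protocols, total RNA came from a TRIzol extraction and went into VAHTS Universal library preparation. The authors deposited counts per gene symbol (32075682 to 37325027 per library). Deposited beside these were FPKM values and the authors' comparisons, giving each gene a fold change (a ratio) with its q-value. In the submitters' processing notes appear mm10 and DESeq2, with no role or version. For the aligner, counter and strand setting, none is given in the sources used here.

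Genes were kept with filterByExpr (14756 of 18138). All 9 libraries, scaled with TMM, entered 1 edgeR quasi-likelihood fit (edgeR 4.0.16, R 4.3.3) with 6 residual degrees of freedom. The 3 contrasts were two-sided F tests with Benjamini-Hochberg adjustment over all genes tested, threshold 0.05. A standard error is the absolute log2 change over the square root of F. The fit was tested on simulated data. The members, the other lists and the tests were chosen with earlier results of these data known. Values in every library are given for members called in any comparison and for Syn1, Syp, Snap25, Vamp2, Stx1a, Syt1, Bsn, Slc17a7, Slc17a6 and Slc32a1, and other presynaptic genes are named where called, at most 3 per list; 1 gene that this rule covers is not reported here. Pclo, Cplx2, Rims3, Doc2b and the Timp genes were named after their values were seen. Alternatives were other scaling, filters and tools (DESeq2 1.42.0, limma 3.58.1 with voom quality weights or on log2 FPKM with 1 or 0.1 added), only the groups compared, a replicate block, and leaving out each library. Positions come from GENCODE M21 (GRCm38). Protein sequences were not used here.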

Additional observations from a re-analysis of the deposited data

How the results depend on the processing

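Scaled on pan-neuronal markers, the 48 members had 6 higher and 4 lower with MCAO, and 5 higher and 3 lower for hypidone against MCAO. Of all genes 31.8% and 30.9% were called on that scaling. The other presynaptic genes, 2 higher and 8 lower with MCAO and 8 higher and 2 lower for hypidone against MCAO, then had 24 higher and 3 lower, and 2 higher and 22 lower. On that scaling the log2 fold change with MCAO turned positive for Syn1 (0.11), Syp (0.0805), Vamp2 (0.0339), Syt1 (0.16) and Bsn (0.44). For hypidone against MCAO it turned negative for Syn1 (-0.0180), Syp (-0.10), Vamp2 (-0.0465), Syt1 (-0.0369) and Bsn (-0.35). By construction this scaling sets the mean of those markers level. With limma voom 26 members were lower with MCAO, and 25 were higher and 2 lower for hypidone against MCAO, and other presynaptic genes had 9 higher and 27 lower, and 23 higher and 9 lower. Of all genes limma voom called 50.3% with MCAO and 51.7% for hypidone against MCAO, and DESeq2 30.4% and 27.3%. DESeq2 called 5 of the other presynaptic genes higher and 13 lower with MCAO, and 6 lower for hypidone against MCAO. With library totals, or limma on log2 FPKM plus 1 or 0.1, 0 were higher with MCAO, and with limma on FPKM 0 were lower for hypidone against MCAO. Without the filter those counts were 1 and 1. Fitted on only the groups compared, 4 members were lower with MCAO (Rims1, Unc13a, Ppfia2 and Rab3c), other presynaptic genes had 0 higher and 1 lower, and 4 were higher for hypidone against MCAO. Those fits called 4.71% of all genes with MCAO and 13.9% for hypidone against MCAO. The cause of these changes was not tested.

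Control and MCAO libraries share title numbers. Correlations of same-numbered deviations were 0.12, 0.12 and -0.04, and those of differently numbered ones ran from -0.15 to 0.12. Deviations were taken from each group's own mean, which ties the values to each other, so they cannot decide whether the numbers pair samples. The main fit used no pairing. With the replicate block 0 members and 0 other presynaptic genes were called in either direction, 15 members had an unadjusted p under 0.05, and Slc17a7 was at -0.00408 (log2). Of all 14489 genes tested with the block, 0 were called. Rims1 and Unc13a had edgeR adjusted p-values of 0.0771 and 0.0775 there, within ranges over all alternatives of 7.99e-08 to 0.0771 and 3.35e-07 to 0.0775.

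Leaving out 1 library at a time gave 5 to 20 members lower and 0 to 1 higher with MCAO, and 2 to 19 higher and 0 lower for hypidone against MCAO. The share of all genes called ranged from 7.26 to 28.5% with MCAO and from 3.65 to 25.8% for hypidone against MCAO. Other presynaptic genes ranged from 0 to 6 higher and 3 to 18 lower with MCAO, and from 1 to 16 higher and 0 to 5 lower for hypidone against MCAO. On the log2 scale Slc17a7 ranged from -0.12 to 0.28 with MCAO and from -0.26 to 0.13 for hypidone against MCAO, and Bsn from -0.20 to 0.0513 with MCAO. No member was called between hypidone and control libraries under any alternative run. With 3 libraries per group and a coefficient of variation of 41.5% within MCAO, a member that missed the test may still differ.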
